A study of Mus musculus with 39 samples.

Results

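Immediate early genes are the first genes a cell transcribes after a stimulus, and in neurons many of them follow synaptic activity. The set described here holds 32 such genes, taken from a named list, among the 24100 genes measured in developing mouse cerebellum. It falls into 4 roles. The AP-1 factors are Fos, Fosb, Fosl1, Fosl2, Jun, Junb, Jund, Atf3 and Maff (9 genes). The zinc finger and nuclear receptor factors are Egr1, Egr2, Egr3, Egr4, Nr4a1, Nr4a2, Nr4a3, Klf2, Klf4, Klf6 and Csrnp1 (11 genes). Csrnp1 is counted in this role but is neither a zinc finger factor nor a nuclear receptor. The neuronal activity genes are Npas4, Arc, Homer1 and Per1 (4 genes), and the feedback and growth regulators are Ier2, Ier3, Ier5, Dusp1, Dusp4, Dusp5, Dusp6 and Btg2 (8 genes).

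The study addressed how bivalent histone marks relate to the timing of granule cell development, and its 39 poly(A) RNA libraries fall into 13 groups. Translating ribosome affinity purification (TRAP) captures RNA bound to EGFP-tagged L10a ribosomes with anti-GFP beads, and all TRAP mice were C57Bl/6J. Tg(NeuroD1-Egfp-L10a) mice, whose tag is driven by NeuroD1, a gene of differentiating granule neurons, gave 5 libraries each from whole cerebellar lysates at postnatal day 7 (P7), P12 and P21. Tg(Atoh1-Egfp-L10a) mice, whose tag is driven by Atoh1, also called Math1, gave 4 libraries from progenitors isolated at P7. Total cerebellar RNA, called input, gave 1 library at each of P7, P12 and P21. Granule cell progenitors from P6 to P7 C57Bl/6J mice gave 2 libraries each as freshly isolated cells (DIV0, days in vitro), after 2 days in culture with DMSO and after 5 days with DMSO, and 2 more after 5 days with 100 nM UNC1999, an inhibitor of the histone methyltransferases EZH2 and EZH1. A second culture experiment compared progenitors of P7 Ezh1(cKO/cKO);Atoh1-Cre mice, 4 libraries, with those of Ezh1(wt/wt);Atoh1-Cre mice, 5 libraries, after 5 days in vitro. All 9 of those cultures carried Atoh1-Cre, and their strain was not labelled. The labels do not state whether replicates are different animals or cultures, so p-values reflect only the spread between these libraries, which may be technical.

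Most immediate early genes need no new protein to be switched on. Calcium entry and growth factor signals reach them through ERK, calcium and stress kinases, which act on the factors CREB, SRF and the ELK proteins already bound at their promoters. Fos and Jun family proteins pair to form AP-1, Egr and Nr4a proteins bind DNA as zinc finger factors and orphan nuclear receptors, and together they switch on slower genes such as Bdnf. Dusp proteins are phosphatases that switch the kinases off again. Granule cells, the most numerous neurons of the cerebellum, divide as progenitors in the external granule layer, then migrate inward, extend parallel fibres and receive mossy fibre synapses.

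The promoters of 6 members that the results below turn on are printed here because they carry the CREB core motif TGACG close to the transcription start. Each runs from 250 bases before to 50 bases after a start site and comes from RefSeq for GRCm38.p6. Capitals mark TGACG or, on the other strand, CGTCA, and in Dusp1 they also mark the full palindrome TGACGTCA, which overlaps them. The windows are Fos chr12:85473640-85473939 (plus strand), Fosb chr7:19309996-19310295 (minus), Junb chr8:84978699-84978998 (minus), Nr4a1 chr15:101266596-101266895 (plus), Npas4 chr19:4989922-4990221 (minus) and Dusp1 chr17:26508423-26508722 (minus). The annotated genes Nr4a1 (chr15:101253902-101274795) and Npas4 (chr19:4984353-5003439) also reach further upstream than these windows.
Fos: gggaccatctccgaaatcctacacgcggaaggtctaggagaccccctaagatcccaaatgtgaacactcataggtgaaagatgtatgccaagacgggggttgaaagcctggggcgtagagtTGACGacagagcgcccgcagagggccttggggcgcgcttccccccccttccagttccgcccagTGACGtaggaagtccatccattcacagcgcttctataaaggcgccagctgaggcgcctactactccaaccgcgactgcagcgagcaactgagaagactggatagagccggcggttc
Fosb: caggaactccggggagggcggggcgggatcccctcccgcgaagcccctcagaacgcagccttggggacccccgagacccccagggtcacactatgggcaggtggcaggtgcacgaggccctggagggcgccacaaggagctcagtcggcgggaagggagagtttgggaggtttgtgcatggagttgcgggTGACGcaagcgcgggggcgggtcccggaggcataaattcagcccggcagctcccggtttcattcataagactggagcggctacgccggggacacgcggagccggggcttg
Junb: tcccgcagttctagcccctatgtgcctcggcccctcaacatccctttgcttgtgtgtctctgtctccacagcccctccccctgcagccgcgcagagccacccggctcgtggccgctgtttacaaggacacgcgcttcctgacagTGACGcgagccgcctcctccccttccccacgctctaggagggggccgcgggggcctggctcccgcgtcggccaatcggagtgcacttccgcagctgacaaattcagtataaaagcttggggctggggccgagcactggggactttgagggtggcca
Nr4a1: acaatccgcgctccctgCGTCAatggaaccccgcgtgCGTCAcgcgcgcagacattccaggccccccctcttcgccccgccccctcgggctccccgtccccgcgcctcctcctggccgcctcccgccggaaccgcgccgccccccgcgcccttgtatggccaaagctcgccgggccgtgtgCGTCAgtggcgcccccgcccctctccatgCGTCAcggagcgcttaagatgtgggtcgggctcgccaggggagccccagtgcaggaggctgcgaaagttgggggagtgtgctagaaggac
Npas4: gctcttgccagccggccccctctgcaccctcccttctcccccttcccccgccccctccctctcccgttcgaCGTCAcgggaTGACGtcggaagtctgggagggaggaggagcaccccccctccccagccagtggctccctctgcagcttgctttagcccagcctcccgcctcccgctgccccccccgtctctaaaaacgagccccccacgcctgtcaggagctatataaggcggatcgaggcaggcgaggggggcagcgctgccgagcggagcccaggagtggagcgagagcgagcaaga
Dusp1: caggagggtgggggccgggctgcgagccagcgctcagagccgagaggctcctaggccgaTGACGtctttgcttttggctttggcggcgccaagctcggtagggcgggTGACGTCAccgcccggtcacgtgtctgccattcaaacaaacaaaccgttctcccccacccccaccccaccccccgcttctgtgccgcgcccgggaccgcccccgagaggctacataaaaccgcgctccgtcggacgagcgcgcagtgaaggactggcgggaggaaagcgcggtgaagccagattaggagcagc

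In Fos the motif began 129 and 66 bases before the start site, in Fosb 60 bases before it and in Junb 106 bases before it. Nr4a1 held 4 copies, and Npas4 held 2, of which 1 lay on the other strand. RefSeq gave a window for 26 members, and TGACG stood on either strand in 19 of them (73.1%), against 23% of 27025 genes with a window. The 19 were Fos, Fosb, Junb, Atf3, Maff, Egr2, Egr4, Nr4a1, Nr4a2, Nr4a3, Klf2, Klf4, Csrnp1, Npas4, Homer1, Per1, Dusp1, Dusp5 and Btg2. The palindrome TGACGTCA stood in 3 members (Maff, Dusp1 and Btg2; 11.5%), against 2.03% of genes. The EGR motif GCGNGGGCG stood in 8 members (Fosb, Fosl2, Maff, Nr4a1, Nr4a2, Klf2, Klf4 and Btg2; 30.8%), against 6.27% of genes. The CArG box bound by SRF stood in Egr2 and Dusp5 (7.69% against 1.81%), and the AP-1 motif TGANTCA in Csrnp1 (3.85% against 8.97%). All motifs were searched on both strands, and a match describes these letters, not binding. Fosl1, Egr1, Egr3, Arc, Ier2 and Dusp4 had no window and were not searched. Sequence outside the windows was not searched either, so no member is shown to lack a motif.

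Levels are given as CPM, counts scaled to each library's total, and those totals ran between 12084136 and 38546538 counts. At these depths 3 counts correspond to 0.0778 to 0.248 CPM, the limit that a count of 0 allows; it covers counting error only. The 9 Ezh1 libraries hold no values for 1041 genes, none of them a member. Differences between groups were fitted over all genes with edgeR and are given as log2 fold changes ± SE, with positive values meaning higher in the first-named group, and a gene was called at an adjusted p under 0.05. These fits scale libraries by TMM, so a small log2 value can differ in sign from the CPM means. In the TRAP fits 31 members were tested, since Fosl1 did not pass the filter on low counts, and 32 in the culture fits. Marker levels in TRAP RNA were set beside input of the same age. The summed level of 4 granule progenitor markers was 2031 to 2959 CPM in Math1 TRAP against 495 CPM in P7 input. Math1 TRAP came from isolated cells, so tag and isolation cannot be told apart there. In P7 Neurod1 TRAP the same markers summed to 351 to 569 CPM. The summed level of 4 granule neuron markers was 9665 to 10560 CPM in P21 Neurod1 TRAP against 4970 CPM in P21 input. In bulk RNA, fewer cells of a type and less RNA per cell cannot be told apart.

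Libraries of P21 Neurod1 TRAP, P7 Math1 TRAP and the Ezh1 cultures fell into sets that stood apart over all genes. The members are set beside the share of all genes for each. The chi-square per gene between P21 Neurod1 TRAP libraries 2 and 3 on one side and 1, 4 and 5 on the other was 23.3 to 33.5, against 7.2 to 11.7 within the sets. Between P7 Math1 TRAP libraries 3 and 4 and libraries 1 and 2 it was 25.1 to 33.4, against 4.23 to 11.9 within. Between Ezh1 culture libraries 1 and 2 and the others of the same genotype it was 110 to 215, against 4.39 to 52.8 within. Pairs of P7 Neurod1 TRAP libraries, which were not split into sets, gave 10.8 to 32.5, reaching the size seen between the P21 or Math1 sets. The sets come from the data and not from the labels, so they are described with no test. Math1 TRAP libraries 3 and 4 had totals of 15685879 and 12084136 counts, against 25723508 and 29970095 in libraries 1 and 2. Ezh1 culture libraries 1 and 2 had 16755842 to 22063060 counts, against 12662665 to 14490262 in the others. In P21 Neurod1 TRAP the totals of the sets overlapped. The part of sequencing depth in the sets and in the chi-square values was not tested.

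In P21 Neurod1 TRAP, libraries 2 and 3 lay above libraries 1, 4 and 5 in 13 of the 29 members over 1 CPM and below them in 4, against 18.8% and 27.9% of 12197 genes. Nr4a1, an orphan nuclear receptor that neurons induce within minutes of activity, had a mean of 202 CPM in libraries 2 and 3 and 82.6 CPM in the other 3. Npas4 had 14.3 and 4.95 CPM, Junb 48.4 and 18.7 CPM, and Dusp1 226 and 121 CPM in the same order. Arc, whose protein regulates glutamate receptor uptake at synapses, went the other way, with 3.56 CPM in libraries 2 and 3 against 5.28 CPM. Summed interneuron markers were 169 to 200 CPM in libraries 2 and 3 and 134 to 148 CPM in the others, and Purkinje cell markers 530 to 547 CPM against 450 to 511 CPM. Astrocyte and Bergmann glia markers summed to 582 to 629 CPM in libraries 2 and 3 against 479 to 575 CPM, and endothelial and pericyte markers to 10.9 to 16 CPM against 8.04 to 9.7 CPM, none of these lists overlapping. The 20 genes raised by heat shock or tissue dissociation summed to 2385 to 2721 CPM against 2654 to 2820 CPM. Their part in the difference was not tested.

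In P7 Math1 TRAP, libraries 3 and 4 lay above libraries 1 and 2 in 21 of 29 members and below them in 1, against 38.1% and 25.6% of 12612 genes. Egr1 had a mean of 96 CPM in libraries 3 and 4 and 2.53 CPM in libraries 1 and 2, and Fos had 45.8 and 2.51 CPM. Jun, the AP-1 partner of Fos, had 293 and 156 CPM. The member that lay below was Ier5, an immediate early gene linked to the heat shock response, at 147 CPM in libraries 3 and 4 against 261 CPM. Astrocyte and Bergmann glia markers summed to 385 to 443 CPM in libraries 3 and 4 against 195 to 203 CPM, and granule progenitor markers to 2031 to 2190 CPM against 2665 to 2959 CPM. Granule neuron markers summed to 1726 to 1792 CPM in libraries 3 and 4 against 1412 to 1453 CPM, oligodendrocyte lineage markers to 292 to 320 CPM against 247 to 278 CPM, and endothelial and pericyte markers to 44.2 to 75.5 CPM against 38.4 to 42.3 CPM. The heat shock and dissociation list summed to 6727 to 6740 CPM against 7058 to 7296 CPM, and the part of none of these lists was tested.

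In the Ezh1 cultures, libraries 1 and 2 of both genotypes lay above the others in 5 of 32 members and below them in 8, against 24.5% and 29.9% of 14736 genes. Both shares of members were below those of all genes. Fos averaged 212 CPM in those 4 libraries and 62.1 CPM in the other 5, Fosb 24.9 and 1.95 CPM, Junb 102 and 48.2 CPM, and Egr1 107 and 43.3 CPM. Dusp5, the phosphatase that acts on ERK in the nucleus, was at 30.6 CPM there against 145 CPM. Microglia markers summed to 241 to 333 CPM in libraries 1 and 2 against 27.3 to 50.6 CPM, oligodendrocyte lineage markers to 746 to 1119 CPM against 184 to 272 CPM, and granule neuron markers to 1191 to 1615 CPM against 1915 to 2538 CPM. Interneuron markers summed to 54.4 to 101 CPM in libraries 1 and 2 against 182 to 235 CPM, endothelial and pericyte markers to 97.3 to 117 CPM against 50.7 to 84.8 CPM, and Purkinje cell markers to 33.7 to 46.7 CPM against 22.6 to 29.8 CPM. The heat shock and dissociation list summed to 6327 to 7188 CPM against 4802 to 5574 CPM. None of these lists overlapped between the sets, and their part was not tested.

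Across the 13 groups the freshly isolated cells held the highest mean for 20 of the 32 members (62.5%), while DIV0 was the highest group for 12.8% of 15534 genes. The 20 were Fos, Fosb, Fosl1, Fosl2, Jun, Junb, Atf3, Maff, Egr1, Egr2, Egr3, Klf2, Klf4, Klf6, Csrnp1, Npas4, Arc, Ier2, Dusp6 and Btg2. P21 Neurod1 TRAP was the highest group for 6 members (Jund, Egr4, Nr4a1, Nr4a2, Dusp1 and Dusp5; 18.8% against 12% of genes). Nr4a3 and Per1 were highest in P21 input, Homer1 and Dusp4 in P7 Neurod1 TRAP, Ier5 in P7 Math1 TRAP and Ier3 in DIV5 DMSO cultures. Egr4 had another order than Egr1, Egr2 and Egr3: its mean was 43.7 CPM in P21 Neurod1 TRAP and 2.51 CPM at DIV0, while that of Egr1 was 46.8 and 337 CPM in the same groups.

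**Figure D1:**
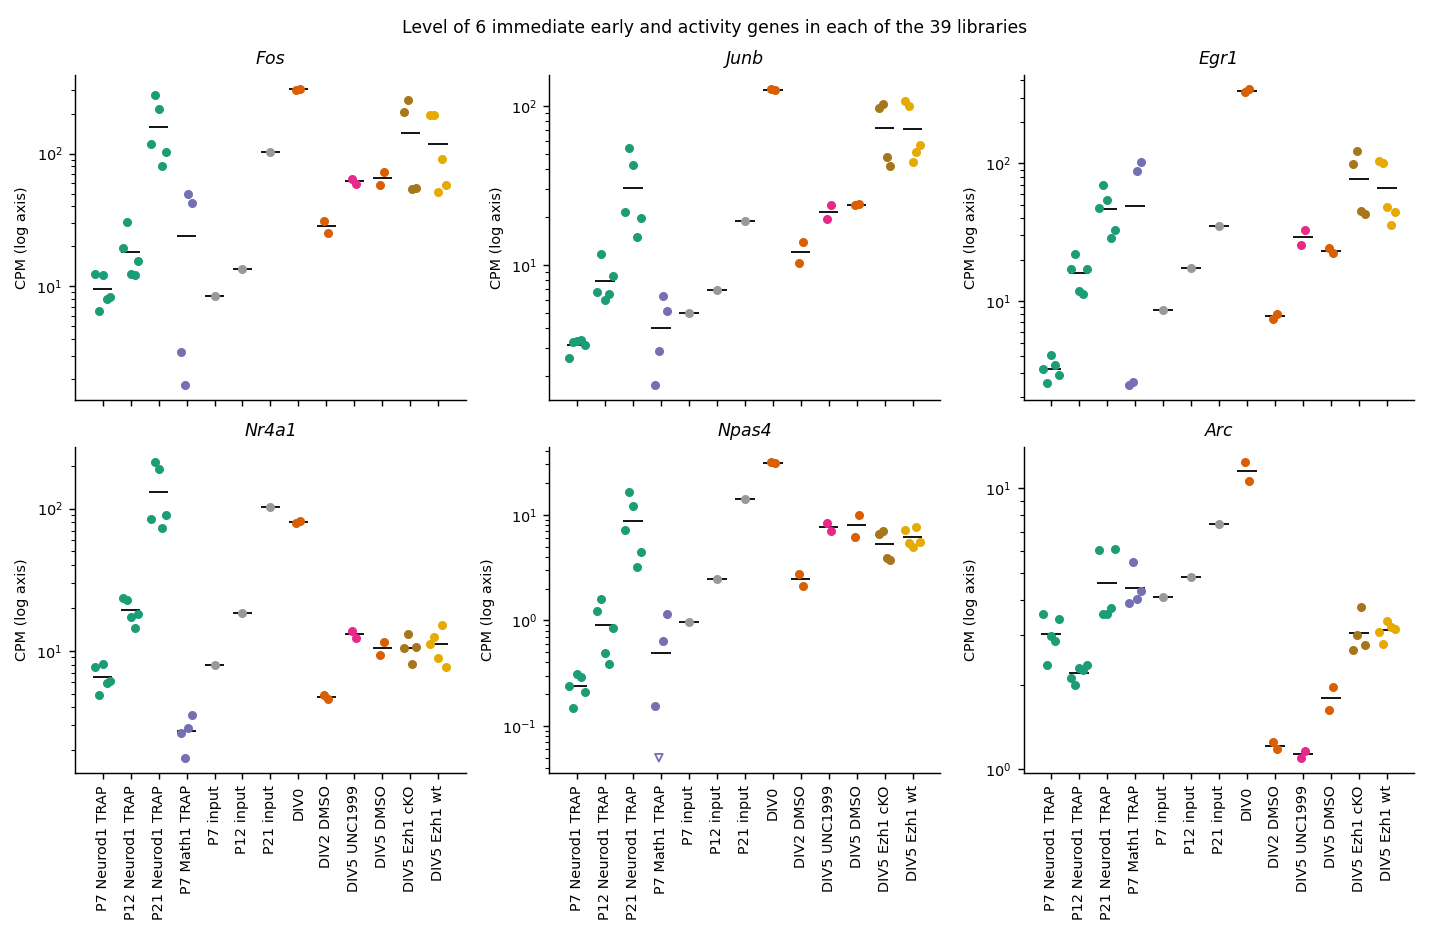
CPM on a log axis of Fos, Egr1, Npas4, Arc, Nr4a1 and Junb in each of the 39 libraries, 1 point per library with black bars at group means and open triangles at the axis for counts of 0. DIV0 holds the highest points for 5 of the 6 genes, and Nr4a1 reaches 213 CPM in P21 Neurod1 TRAP against 81.2 CPM at DIV0.

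**Figure D2:**
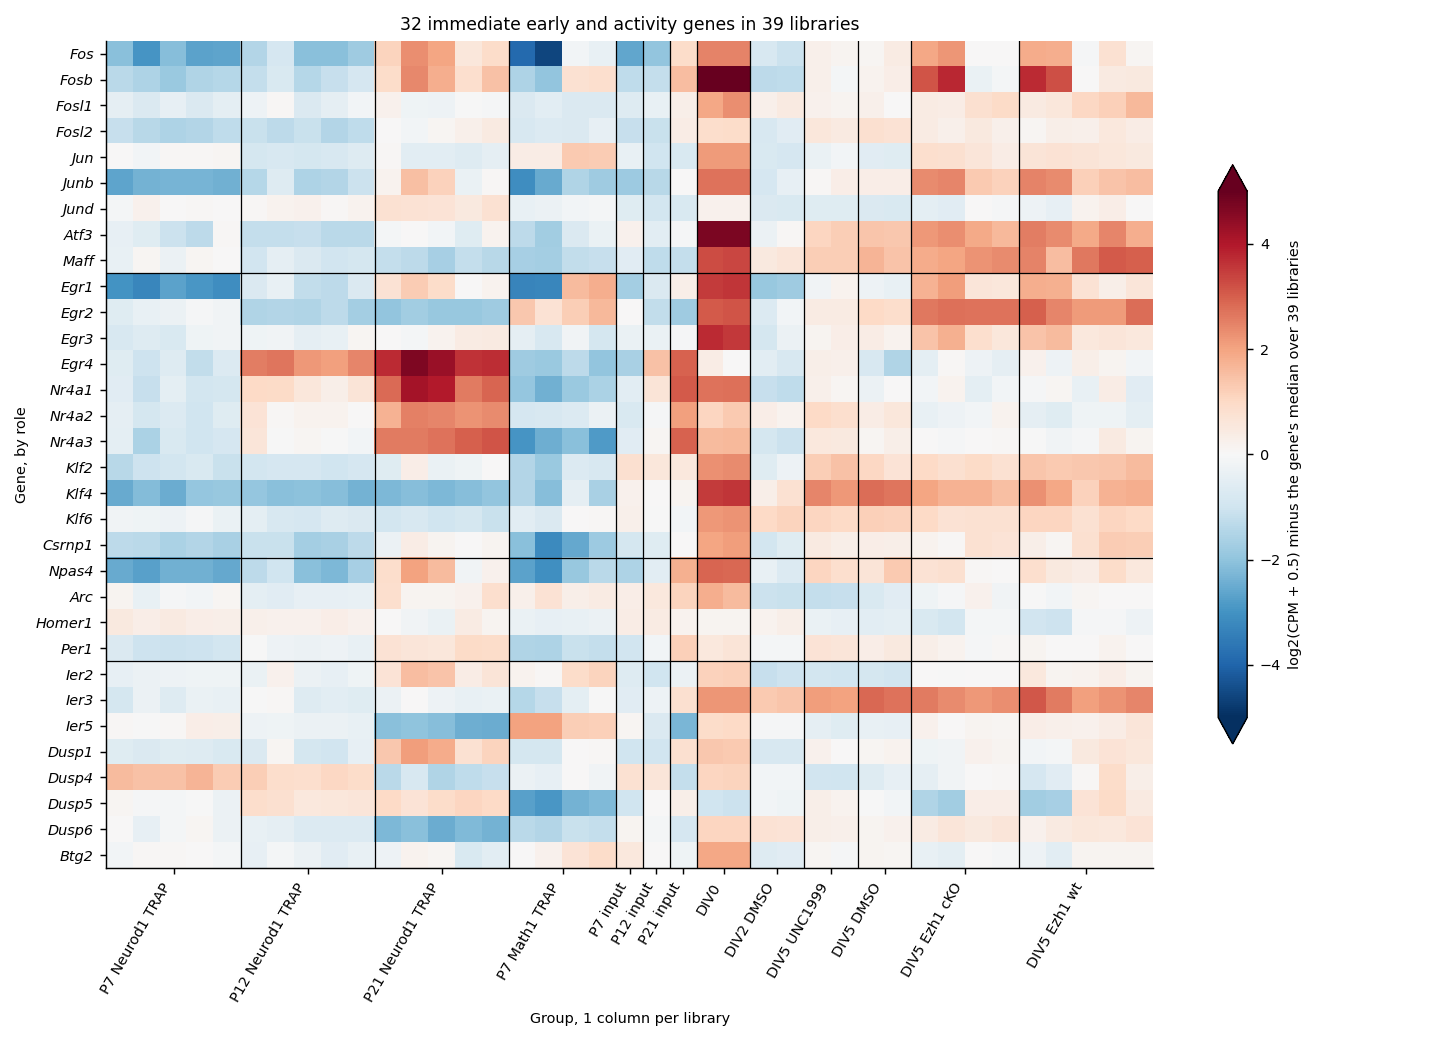
Level of each of the 32 members in each library as log2 of CPM plus 0.5, minus that member's median over the 39 libraries, with colours limited at 5 either way and lines between groups and roles. The 2 DIV0 columns are high for most members, and Egr4, Nr4a1, Nr4a2 and Nr4a3 are also high in the P21 columns.

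Most members fell in culture. After 2 days in DMSO, 30 of the 32 members had fallen and 1 had risen relative to freshly isolated progenitors (93.8% and 3.12%), while 35% of 15978 genes fell and 36.4% rose. The median member changed by -2.59 on the log2 scale and the median gene by 0.02. Dusp5 was the member that rose, and Homer1, a scaffold of the postsynaptic density, was not called. The labels describe the DIV0 samples as aliquots, and the chi-square per gene between their 2 libraries was 1.45, against 4.64 to 7.63 within the other culture groups. The SE and p-values of comparisons with DIV0 may therefore not include the spread between separate preparations of DIV0 cells.

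Among AP-1 factors the largest fall was in Fosb, with 0.389 and 0.436 CPM at DIV2 against 147 and 152 CPM at DIV0. Its log2 difference was -8.47 ± 0.14 (adjusted p = 5.1e-15). Fos had 31.2 and 25.4 CPM at DIV2 against 304 and 305 CPM at DIV0 (-3.39 ± 0.11, adjusted p = 3.7e-09). The values of the 2 times do not overlap for either gene, nor for any of the other genes named in this comparison. Atf3, a stress-induced partner of AP-1 proteins, had 1.64 and 2.18 CPM against 66.4 and 67.8 CPM (-5.13 ± 0.12, adjusted p = 8.4e-14). Junb had 10.2 and 14 CPM against 127 and 126 CPM (-3.38 ± 0.12, adjusted p = 3.8e-10). The other 5 AP-1 factors had log2 differences between -0.94 (Jund) and -2.91 (Jun), so all 9 fell.

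All 11 zinc finger and nuclear receptor factors fell as well. Egr3 had 0.173 and 0.498 CPM at DIV2 against 15.9 and 13.6 CPM at DIV0 (-5.52 ± 0.28, adjusted p = 2.1e-10). Egr1 had 7.39 and 8.1 CPM against 329 and 345 CPM (-5.42 ± 0.11, adjusted p = 1.2e-12). Nr4a1 had 4.89 and 4.55 CPM against 78.6 and 81.2 CPM (-4.05 ± 0.11, adjusted p = 2.8e-13). Egr2, which also controls hindbrain patterning and myelination, had 0.735 and 1.31 CPM against 15.9 and 16.8 CPM (-4.03 ± 0.20, adjusted p = 1.9e-10). The smallest changes in this role were in Nr4a2 (-0.93 ± 0.11), Egr4 (-1.01 ± 0.32) and Klf6 (-1.13 ± 0.06), and the call of Egr4 was lost without 1 library (adjusted p = 0.0592).

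Among the neuronal activity genes Npas4, a factor that neurons induce after calcium entry, had 2.77 and 2.12 CPM at DIV2 against 31.7 and 30.8 CPM at DIV0 (-3.62 ± 0.20, adjusted p = 1.3e-08). Arc had 1.25 and 1.18 CPM against 12.4 and 10.6 CPM (-3.19 ± 0.19, adjusted p = 1.4e-09). Per1, a core clock gene, also fell (-0.65 ± 0.07), and Homer1 was at 63.2 and 67.8 CPM against 60.4 and 60.7 CPM (0.14 ± 0.06, adjusted p = 0.0644). Of the feedback and growth regulators 7 of 8 fell, with log2 differences between -0.34 (Dusp6) and -2.54 (Btg2, an inhibitor of cell division). Dusp5 rose, with 88.8 and 83.7 CPM at DIV2 against 49.3 and 45.9 CPM at DIV0 (0.89 ± 0.07, adjusted p = 5.8e-08).

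Many members were higher again at DIV5. At DIV5, 19 members were higher than at DIV2 and 5 lower (59.4% and 15.6%), against 31.1% and 35.7% of genes, and the median member changed by 0.83 on the log2 scale and the median gene by -0.05. The rise took in 6 AP-1 factors (Fos, Fosb, Fosl2, Junb, Atf3 and Maff), 8 zinc finger and nuclear receptor factors (Egr1, Egr2, Egr3, Nr4a1, Nr4a3, Klf2, Klf4 and Csrnp1), and Npas4, Per1, Ier3, Dusp1 and Btg2. Jund, Homer1, Ier5, Dusp4 and Dusp6 fell. The call of Jund ended under library size scaling (0.00, against -0.14 ± 0.05) and in 3 of the 4 fits that left out a library. The call of Egr3 (1.51) was lost without DIV2 library 1 (0.87, adjusted p = 0.147), and its difference ran between 0.87 and 2.40 over the 4 fits.

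Fosb had 2.05 and 2.29 CPM at DIV5 against 0.389 and 0.436 CPM at DIV2 (2.26 ± 0.29, adjusted p = 7.6e-06). Klf4, a factor that restrains cell division in many cell types, had 27.6 and 25.4 CPM against 4.45 and 6.42 CPM (2.18 ± 0.16, adjusted p = 1.9e-07). Npas4 had 6.15 and 9.99 CPM against 2.77 and 2.12 CPM (1.58 ± 0.24, adjusted p = 1.1e-04). All 3 genes were higher in both DIV5 libraries than in both DIV2 libraries. Fos had 57.9 and 72.7 CPM at DIV5 against 31.2 and 25.4 CPM (1.06 ± 0.12), and Egr1 had 24.2 and 22.4 CPM against 7.39 and 8.1 CPM (1.45 ± 0.13). Junb rose by 0.86 ± 0.13 and Nr4a1 by 1.01 ± 0.13, while Arc had 1.63 and 1.96 CPM against 1.25 and 1.18 CPM and was not called (0.42 ± 0.26, adjusted p = 0.162). Egr2 (1.60 ± 0.26), Atf3 (1.56 ± 0.17), Klf2 (1.34 ± 0.20) and Fosl2 (1.32 ± 0.09) rose too.

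At DIV5 the levels were still below those of freshly isolated cells for 30 members, and Ier3 and Dusp5 were higher (93.8% and 6.25%, against 38.2% and 40.2% of genes). This comparison shares its libraries with the other 2 culture comparisons. Fosb had 2.05 and 2.29 CPM at DIV5 against 147 and 152 CPM at DIV0 (-6.21 ± 0.11, adjusted p = 4.8e-15). Jun had 81.6 and 78.8 CPM against 529 and 529 CPM (-2.83 ± 0.06, adjusted p = 2.5e-14). Fosl1, which is low in these cells, had 0.483 and 0.327 CPM against 2.63 and 3.65 CPM (-3.11 ± 0.34, adjusted p = 8.6e-07). Egr3 (-4.02 ± 0.22), Egr1 (-3.97 ± 0.10), Atf3 (-3.57 ± 0.10), Nr4a1 (-3.03 ± 0.10), Arc (-2.77 ± 0.18), Junb (-2.52 ± 0.11), Fos (-2.33 ± 0.10) and Npas4 (-2.04 ± 0.17) were lower at DIV5 as well. Ier3, an early response gene tied to cell survival, was at 51 and 45.3 CPM at DIV5 against 32.1 and 32.4 CPM at DIV0 (0.46 ± 0.08, adjusted p = 1.5e-04), and at 17.1 and 18.1 CPM at DIV2. Fosl2 reached 67.2 and 65.2 CPM against 70.9 and 72.8 CPM (-0.23 ± 0.08, adjusted p = 0.0134), and this call was lost in 2 of 4 fits that left out a library.

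**Figure D3:**
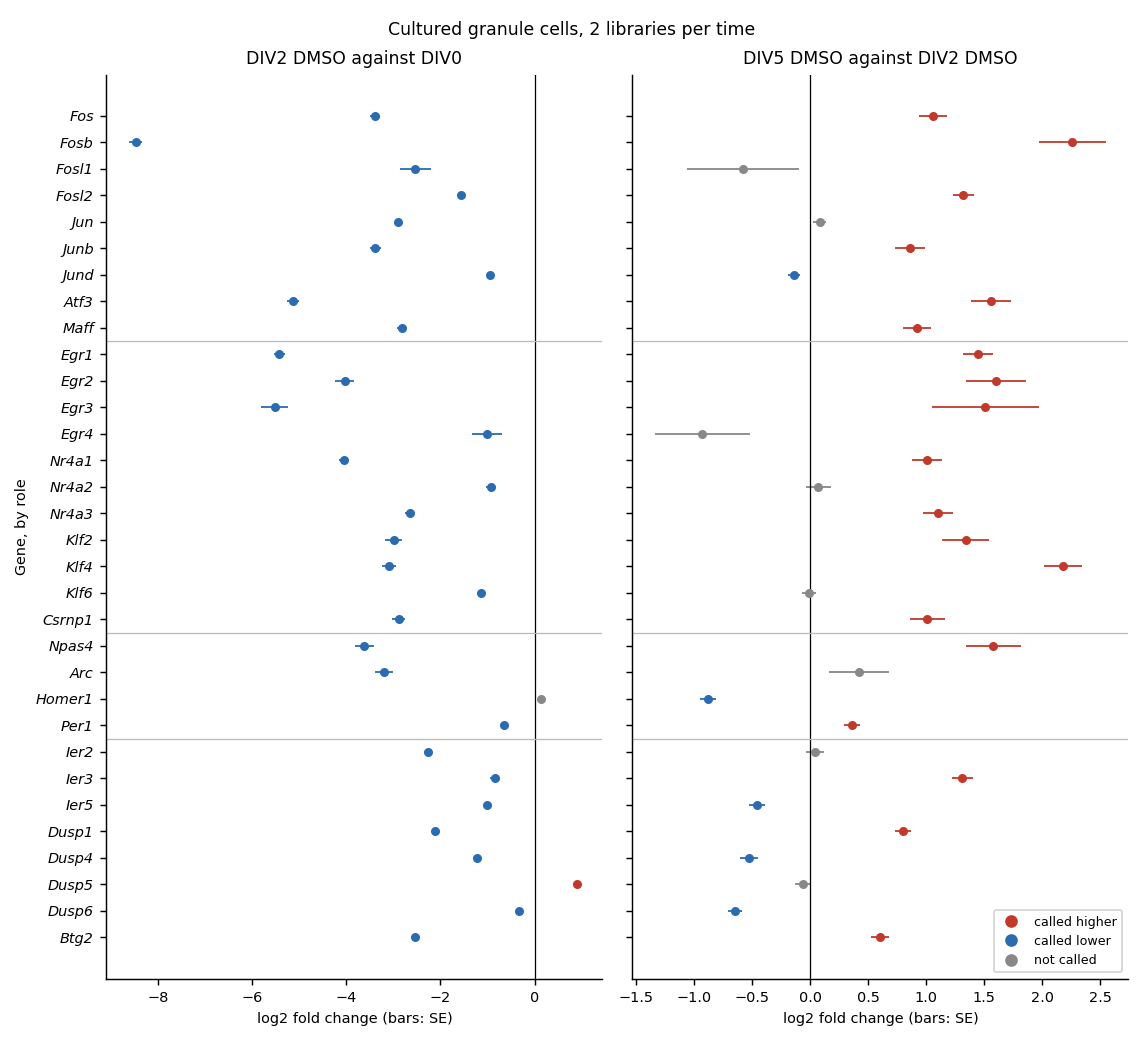
Log2 fold change with SE of the 32 members for DIV2 DMSO against DIV0 (left) and DIV5 DMSO against DIV2 DMSO (right), on axes of different range, red where called higher, blue where called lower and grey where not called. Nearly all points of the DIV2 comparison lie below 0, from -8.47 for Fosb to 0.89 for Dusp5.

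Cell type markers moved alongside. At DIV2 all 4 granule progenitor markers were lower than at DIV0 (summed level 81.7 to 116 CPM against 2224 to 2306 CPM), all 6 endothelial and pericyte markers were lower (44 to 71.6 CPM against 446 CPM or more) and all 4 granule neuron markers were higher. At DIV5 all 6 microglia markers (449 to 467 CPM against 57.6 to 60 CPM) and all 6 astrocyte and Bergmann glia markers (1921 to 1982 CPM against 773 to 781 CPM) were higher than at DIV2, and none of these lists was at 0. The part of these cells in the changes was not tested. Of 20 heat shock and dissociation genes, 3 were higher and 10 lower at DIV2 than at DIV0 (median -0.38), with sums of 4937 to 5119 CPM against 5370 to 5448 CPM. Zfp36, which destabilises early response mRNAs, averaged 2.08 CPM at DIV2 and 49.6 CPM at DIV0 (-4.60 ± 0.14), Nfkbia fell by 1.28 ± 0.07 and Socs3 by 1.10 ± 0.06 on the log2 scale. Freshly isolated cells had just been dissociated, and an effect of dissociation and of culture cannot be told apart in this comparison.

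Of 23 upstream regulators 9 were higher and 8 lower at DIV2 than at DIV0 (median 0.06), counts close to what the 36.4% and 35% of all genes would give. Srf, the factor that binds CArG boxes, averaged 49.5 ± 0.734 CPM at DIV2 and 317 ± 4.65 CPM at DIV0 (SD, n = 2 each; -2.65 ± 0.05, adjusted p = 1.7e-14). The calcium kinases Camk4 (3.74 ± 0.07) and Camkk2 (3.0 ± 0.08) rose. Of 20 later activity-induced genes 6 were higher and 12 lower (median -0.42), Sik1 falling by 2.28 ± 0.10 and Trib1 by 1.71 ± 0.08 while the secretory protein gene Scg2 rose by 1.73 ± 0.06. From DIV2 to DIV5, 6 upstream regulators rose and 14 fell, among them Rps6ka5, a kinase that phosphorylates CREB and histone H3 (-1.22 ± 0.07), and Creb1 itself (-0.89 ± 0.05). Of all genes 31.1% rose and 35.7% fell. In the same interval 10 later activity-induced genes rose and 6 fell, and 10 heat shock and dissociation genes rose and 8 fell, led by Vgf (0.98 ± 0.07) and Hspa1a (2.37 ± 0.15). Between DIV5 and DIV0 the counts of higher and lower genes were 9 and 9, 8 and 10, and 8 and 11 for the upstream, later and dissociation lists.

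In Neurod1 TRAP RNA the members rose late in postnatal development. At P21, 21 of the 31 tested members were higher than at P12 and 5 lower (67.7% and 16.1%), against 32.4% and 32.7% of 14759 genes, and the median member changed by 1.17 on the log2 scale and the median gene by 0.00. At P12, 9 members were higher than at P7 and 9 lower (29% each), against 31.5% and 36.7% of genes, shares below those of all genes, with a median of 0.16 against -0.04. At P21, 20 members were higher and 6 lower than at P7 (64.5% and 19.4%, against 38.9% and 42.5% of genes), with a median of 1.30 against -0.05. The 3 comparisons share their libraries.

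The 9 members higher at P12 than at P7 were Junb, Egr1, Egr4, Nr4a1, Nr4a2, Nr4a3, Npas4, Per1 and Dusp5. Egr4, a zinc finger factor of the same family as Egr1, had 15.1, 16.3, 11.2, 10.3 and 13.7 CPM at P12 against 1.21, 0.77, 1.16, 0.616 and 1.13 CPM at P7 (3.77 ± 0.24, adjusted p = 1.8e-11). All 5 P12 libraries lay above all 5 P7 libraries. Egr1 had 17.2, 22, 11.9, 11.3 and 17.2 CPM at P12 against 3.19, 2.53, 4.09, 3.41 and 2.92 CPM at P7, again without overlap (2.31 ± 0.83, adjusted p = 0.0212). Nr4a1 had 23.5, 22.9, 17.2, 14.4 and 18.2 CPM at P12 against 7.69, 4.88, 8.09, 5.94 and 6.14 CPM at P7 (1.56 ± 0.29, adjusted p = 1.3e-04). Nr4a3 (1.10 ± 0.19) and Nr4a2 (0.99 ± 0.15), the other receptors of that family, rose as well. Egr2 went the other way, with 0.196, 0.222, 0.186, 0.285 and 0.105 CPM at P12 against 0.79, 1.03, 1.12, 1.38 and 1.25 CPM at P7 (-2.40 ± 0.31, adjusted p = 4.7e-07).

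The AP-1 factors were mixed in this interval. Junb rose (6.74, 11.7, 6.04, 6.51 and 8.55 CPM at P12 against 2.58, 3.26, 3.31, 3.37 and 3.13 CPM at P7; 1.35 ± 0.36, adjusted p = 0.00253). Jun fell by 0.79 ± 0.15, Maff by 0.80 ± 0.17 and Atf3 by 1.02 ± 0.36 on the log2 scale, the last with overlapping groups (0.627, 0.622, 0.681, 0.519 and 0.525 CPM at P12 against 1.45, 1.21, 0.732, 0.544 and 2.21 CPM at P7) and a call lost without P7 library 5 (adjusted p = 0.0729). Fos had 19.4, 30.4, 12.5, 12.2 and 15.5 CPM at P12 against 12.4, 6.56, 12.1, 8.08 and 8.27 CPM at P7. The lowest P12 value of Fos lay below the highest P7 value, and neither it nor Fosb was called (0.92 ± 0.68, adjusted p = 0.243 and 1.00 ± 0.79, adjusted p = 0.272). Both were called when only the P12 and P7 libraries were fitted (adjusted p = 0.00457 for Fos and 0.0107 for Fosb).

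Npas4 had 1.22, 1.6, 0.495, 0.389 and 0.841 CPM at P12 against 0.237, 0.147, 0.308, 0.29 and 0.209 CPM at P7 (1.86 ± 0.70, adjusted p = 0.025). Arc had 2.12, 2, 2.29, 2.26 and 2.35 CPM at P12 against 3.56, 2.35, 2.97, 2.86 and 3.43 CPM at P7 (-0.44 ± 0.18, adjusted p = 0.0348). Both were called on the margin: each call was lost in 4 of 10 fits that left out 1 library, with adjusted p of up to 0.0682 for Npas4 and 0.102 for Arc. Per1 rose by 0.74 ± 0.10 and Dusp5 by 0.77 ± 0.11, while Klf6, Ier5, Dusp4 and Dusp6 fell, with log2 differences between -0.42 (Ier5) and -0.50 (Dusp4). Fosl2, Jund, Egr3, Klf2, Klf4, Csrnp1, Homer1, Ier2, Ier3, Dusp1 and Btg2 were not called.

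Fos had 119, 276, 216, 81.1 and 102 CPM at P21 against 19.4, 30.4, 12.5, 12.2 and 15.5 CPM at P12 (3.31 ± 0.67, adjusted p = 4.4e-04). Fosb had 3.74, 11.2, 7.3, 3.46 and 5.72 CPM at P21 against 0.47, 0.799, 0.341, 0.493 and 0.736 CPM at P12 (3.65 ± 0.59, adjusted p = 1.9e-05). Junb had 21.5, 54.1, 42.6, 15 and 19.6 CPM at P21 against 6.74, 11.7, 6.04, 6.51 and 8.55 CPM at P12 (2.11 ± 0.33, adjusted p = 1.5e-05). Every P21 library of these 3 genes lay above every P12 library, and libraries 2 and 3 were the highest at P21. Fosl2, Jun, Jund and Atf3 rose by 0.54 to 1.82 on the log2 scale, so 7 of 8 tested AP-1 factors rose and Maff fell (-0.54 ± 0.18). Fosl1, which was not tested, had 0.2 to 0.472 CPM at P21.

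Of the zinc finger and nuclear receptor factors 8 of 11 rose. Nr4a1 had 85.1, 213, 191, 73.3 and 89.5 CPM at P21 against 23.5, 22.9, 17.2, 14.4 and 18.2 CPM at P12 (2.92 ± 0.28, adjusted p = 3.5e-08). Nr4a3 had 63.2, 63.6, 68.4, 84.6 and 93.2 CPM at P21 against 15.8, 9.9, 10.7, 9.94 and 9.21 CPM at P12 (2.91 ± 0.18, adjusted p = 1.2e-11). Nr4a2 had 54.2, 92.4, 87.9, 77.6 and 82.6 CPM at P21 against 25.4, 16.4, 17.7, 18 and 15.8 CPM at P12 (2.24 ± 0.15, adjusted p = 2.9e-11). None of the 3 receptor genes overlapped between the ages, and Nr4a3 was highest in P21 libraries 4 and 5, not in 2 and 3. Egr1 had 47.4, 70.2, 54.4, 28.9 and 33.1 CPM at P21 against 17.2, 22, 11.9, 11.3 and 17.2 CPM at P12, without overlap. In the main fit its call was on the margin (1.72 ± 0.73, adjusted p = 0.0487) and was lost in 9 of 10 fits that left out 1 library. That fit shares its estimate of spread with the P7 Math1 libraries, where Egr1 had 2.45, 2.6, 88.7 and 103 CPM. The call held when only the P21 and P12 libraries were fitted. Egr4 rose by 1.87 ± 0.19, Csrnp1 by 1.76 ± 0.21, Klf2 by 1.09 ± 0.24 and Egr3 by 0.89 ± 0.29, and Klf4 and Klf6 were not called. Egr2 fell to 0, 3, 1, 1 and 3 counts per library at P21, against 5, 5, 6, 11 and 3 counts at P12, and its log2 difference of -1.84 ± 0.50 rests on those few counts.

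Of the neuronal activity genes 3 rose. Npas4 had 7.19, 16.6, 12.1, 3.23 and 4.43 CPM at P21 against 1.22, 1.6, 0.495, 0.389 and 0.841 CPM at P12 (3.48 ± 0.50, adjusted p = 3.8e-06). Arc had 6.03, 3.56, 3.57, 3.75 and 6.07 CPM at P21 against 2.12, 2, 2.29, 2.26 and 2.35 CPM at P12 (1.21 ± 0.18, adjusted p = 3.3e-06). Both genes were higher in each P21 library than in each P12 library, Arc most in libraries 1 and 5 and Npas4 most in libraries 2 and 3. Per1 rose by 1.17 ± 0.10, and Homer1 was not called (-0.07 ± 0.09, adjusted p = 0.542).

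The feedback regulators split by gene. Dusp1, which inactivates stress-activated kinases, had 145, 245, 207, 95.8 and 122 CPM at P21 against 34, 61.1, 31, 29.2 and 42 CPM at P12 (2.21 ± 0.26, adjusted p = 6.3e-07). Dusp4 had 11, 16.2, 9.67, 11.7 and 12.8 CPM at P21 against 67.5, 52.5, 51.8, 59.8 and 54.7 CPM at P12 (-2.07 ± 0.12, adjusted p = 1.8e-12). Ier5 had 14.6, 15.5, 14.4, 11.4 and 11.1 CPM at P21 against 53.5, 54.8, 52, 52.4 and 49.4 CPM at P12 (-1.82 ± 0.16, adjusted p = 2.1e-09). None of these 3 overlapped between the ages. Dusp6, which removes phosphate from ERK in the cytoplasm, fell by 1.61 ± 0.10, while Dusp5 rose by 0.42 ± 0.10 and Ier2 by 1.38 ± 0.22. Ier3 and Btg2 were not called. Without P21 libraries 2 and 3, left out after seeing the data, 20 members were higher and 4 lower than at P12. Of 14889 genes in that fit 4316 were higher and 4595 lower. The calls of Egr1 (1.33, adjusted p = 0.188) and Maff (-0.45, adjusted p = 0.0581) were lost.

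From P7 to P21 the largest rises were in Egr4 (34.7, 65.9, 52.5, 31.5 and 33.7 CPM at P21; 5.64 ± 0.25, adjusted p = 4.3e-15) and Npas4 (5.34 ± 0.59, adjusted p = 5.3e-08). Fosb followed with 4.65 ± 0.65, Nr4a1 with 4.48 ± 0.31, Fos with 4.23 ± 0.71, Egr1 with 4.03 ± 0.84, Nr4a3 with 4.01 ± 0.20 and Junb with 3.47 ± 0.36. Jun was the one AP-1 factor called between P21 and P12 but not between P21 and P7 (76.2 to 124 CPM at P21 against 108 to 127 CPM at P7; -0.25 ± 0.15, adjusted p = 0.135). Klf6, Maff, Ier5, Dusp4, Dusp6 and Egr2 fell. Arc rose by 0.77 ± 0.17, although it had fallen by P12.

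**Figure D4:**
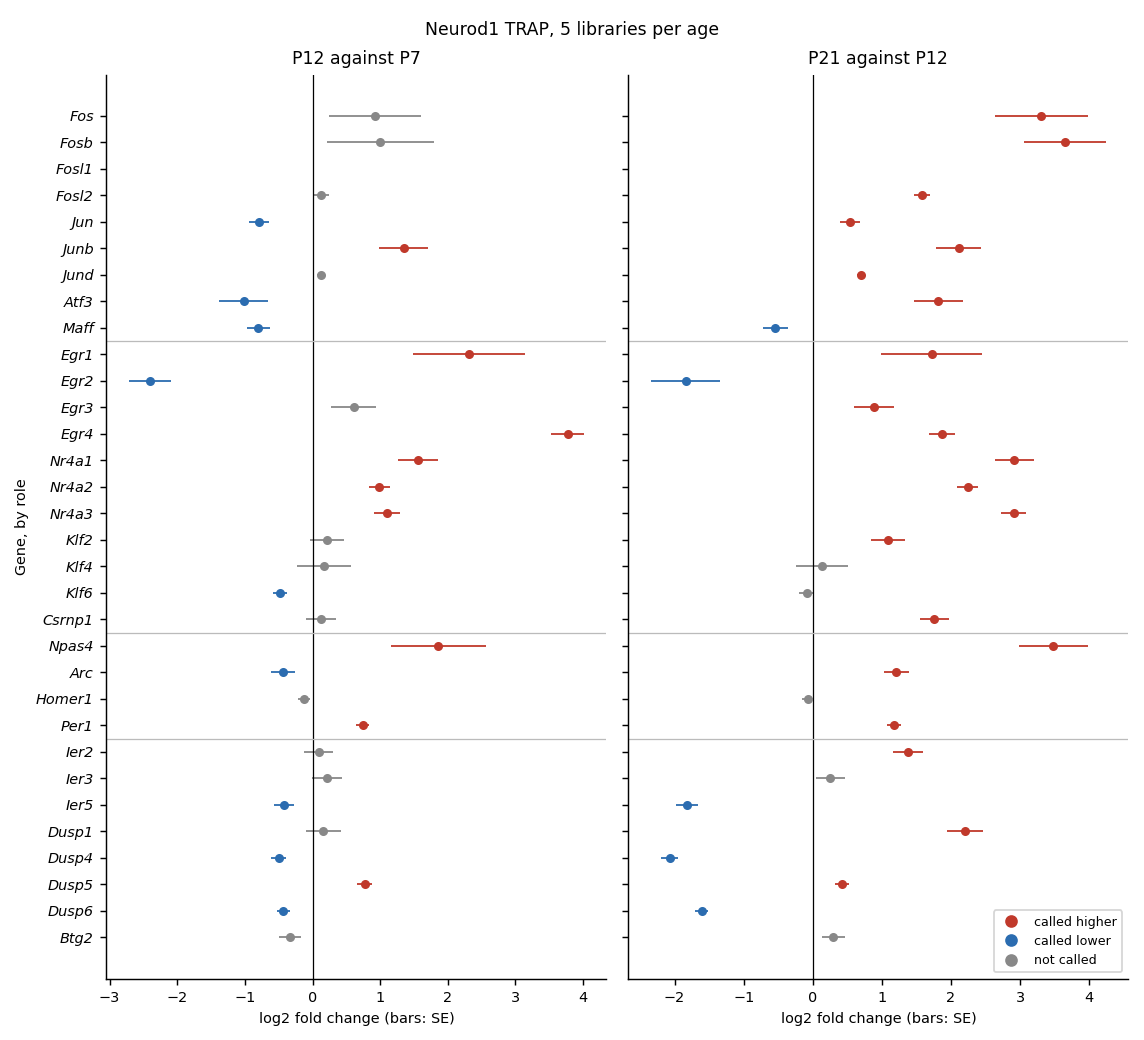
Log2 fold change with SE of the 31 tested members in Neurod1 TRAP for P12 against P7 (left) and P21 against P12 (right), red where called higher, blue where called lower and grey where not called. In the P21 panel Fosb, Npas4, Fos, Junb, Dusp1 and the Nr4a genes lie to the right of 2, and Dusp4 lies at -2.07.

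Other genes of the pathway were measured over the same ages, and their counts can be read against the 32.4% of all genes that rose and the 32.7% that fell between P12 and P21. Bdnf, a neuronal growth factor that Npas4 can switch on, averaged 41.6 ± 7.71 CPM at P21 and 5.83 ± 1.52 CPM at P12 (SD, n = 5 each; 3.0 ± 0.15, adjusted p = 2.3e-13). Of the 18 later activity-induced genes tested 8 rose between P12 and P21 and 6 fell (median 0.07), with Nrn1 rising by 1.21 ± 0.07 and Plk2 falling by 1.61 ± 0.12. Of the 23 upstream regulators 11 rose and 6 fell (median 0.15), with Camkk2 at 925 ± 26.0 CPM and 462 ± 23.5 CPM (1.16 ± 0.07), Mapk3, which encodes an ERK, rising by 0.92 ± 0.06, and the ribosomal S6 kinase gene Rps6ka2 falling by 1.64 ± 0.08. Between P7 and P12, 9 upstream regulators rose and 6 fell, and 7 later genes rose and 5 fell, led by Camkk2 (1.5 ± 0.07), Crtc2 (1.47 ± 0.08), Gadd45b (2.02 ± 0.11) and Bdnf (1.99 ± 0.18), against 31.5% and 36.7% of all genes. Between P7 and P21 the counts were 12 and 8 for upstream regulators and 8 and 6 for later genes, against 38.9% and 42.5% of all genes, with Camkk2 2.66 ± 0.07 and Bdnf 4.98 ± 0.18.

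Marker lists and the dissociation list also moved with age. Granule neuron markers summed to 9665 to 10560 CPM at P21 and 6697 to 7182 CPM at P12, and 3 of 4 were higher and 1 lower. Purkinje cell markers, all 4 higher, summed to 450 to 547 CPM at P21 and 340 to 410 CPM at P12, and granule progenitor markers, all 4 lower, to 2.07 to 2.58 CPM and 42.1 to 60.5 CPM. The heat shock and dissociation list summed to 2385 to 2820 CPM at P21 and 3339 to 3811 CPM at P12, with 7 of 20 genes higher, among them Mt2 (2.11 ± 0.20), and 6 lower, among them Socs3 (-2.79 ± 0.11) and Dnaja1 (-0.67 ± 0.06). Between P12 and P7 it had 4 higher and 8 lower, and between P21 and P7 9 higher and 8 lower, with Hspa8 falling by 0.69 ± 0.06 and 1.10 ± 0.06. The part of other cell types in the rise was not tested.

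At P7, Neurod1 TRAP was compared with Math1 TRAP. Granule progenitor markers, all 4 lower, summed to 351 to 569 CPM in Neurod1 TRAP and 2031 to 2959 CPM in Math1 TRAP. They were at 495 CPM in P7 input, so the Neurod1 RNA was not free of progenitor RNA. Of 31 members 11 were higher in Neurod1 TRAP than in Math1 TRAP and 10 lower (35.5% and 32.3%), against 36.5% and 35.8% of genes, shares close to those of all genes, with a median of 0.07 against 0.01. Dusp5, the nuclear ERK phosphatase, had 104, 94.1, 89.9, 95.1 and 79.5 CPM in Neurod1 TRAP against 14.4, 12.4, 18.5 and 20.9 CPM in Math1 TRAP (2.51 ± 0.13, adjusted p = 2.6e-13). Dusp4 had 86.5, 79.3, 79.8, 94.4 and 70.4 CPM against 23.3, 21.6, 28.8 and 25.4 CPM (1.74 ± 0.13, adjusted p = 8.1e-11). Dusp6 was higher by 1.17 ± 0.11. All 5 Neurod1 libraries lay above all 4 Math1 libraries for each of these phosphatases.

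Nr4a3 had 6.98, 3.04, 5.67, 4.82 and 5.39 CPM in Neurod1 TRAP against 0.855, 1.43, 1.98 and 0.993 CPM in Math1 TRAP (1.99 ± 0.27, adjusted p = 1.3e-06). Maff, a small Maf factor without an activation domain, had 3.45, 5.02, 3.7, 5 and 4.64 CPM against 1.13, 1.07, 1.72 and 1.82 CPM (1.66 ± 0.20, adjusted p = 2.0e-07). Nr4a1, Egr4, Csrnp1, Homer1, Per1 and Jund were higher as well. Ier5 was lower, with 67.2, 62.9, 66.9, 80.4 and 78.4 CPM against 259, 262, 149 and 145 CPM (-1.53 ± 0.16, adjusted p = 2.0e-08), and so was Egr2, with 0.79, 1.03, 1.12, 1.38 and 1.25 CPM against 4.51, 2.74, 4.08 and 5.63 CPM (-1.92 ± 0.24, adjusted p = 3.2e-07). Neither gene overlapped between the populations. Jun, Fosl2, Klf4, Arc, Ier2 and Btg2 were lower too, with log2 differences between -0.51 (Btg2) and -1.51 (Klf4). Against Math1 libraries 1 and 2 alone the calls of Ier2 (-0.42, adjusted p = 0.129) and Btg2 (-0.17, adjusted p = 0.418) were lost. The call of Arc was lost without Math1 library 2 (-0.42, adjusted p = 0.0668), and that of Btg2 without Math1 library 4 (-0.35, adjusted p = 0.0747).

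The differences of Egr1, Fosb and Fos, among others, changed with the Math1 libraries used. Egr1 had 3.19, 2.53, 4.09, 3.41 and 2.92 CPM in Neurod1 TRAP against 2.45, 2.6, 88.7 and 103 CPM in Math1 TRAP (-3.87 ± 0.86, adjusted p = 8.2e-04). Against Math1 libraries 1 and 2 alone the difference was 0.32 (adjusted p = 0.457). Fosb had 0.369, 0.257, 0.116, 0.29 and 0.334 CPM against 0.272, 0.0667, 3.32 and 3.48 CPM (-2.41 ± 0.78, adjusted p = 0.00931), and 0.73 (adjusted p = 0.439) against libraries 1 and 2 alone. Its call was also lost without either Math1 library 3 or 4. Fos had 12.4, 6.56, 12.1, 8.08 and 8.27 CPM against 3.23, 1.8, 49.5 and 42.1 CPM and was not called (-1.24 ± 0.73, adjusted p = 0.139), while it was higher by 1.91 (adjusted p = 0.0174) against libraries 1 and 2 alone and was at -2.23 (adjusted p = 6.1e-04) against 3 and 4 alone. Npas4 had 0.147 to 0.308 CPM in Neurod1 TRAP and 0.155, 0, 0.638 and 1.16 CPM in Math1 TRAP (adjusted p = 0.573), the 0 allowing up to 0.1 CPM. Junb was not called either (-0.29 ± 0.41, adjusted p = 0.544), and Atf3, Egr3, Nr4a2, Klf2, Klf6, Ier3 and Dusp1 were not called. Against Math1 libraries 1 and 2 alone Atf3 (1.58, adjusted p = 0.00606), Klf2 (0.91, adjusted p = 0.0158), Klf6 (0.38, adjusted p = 0.0034) and Ier3 (0.87, adjusted p = 0.00285) were called higher. Against libraries 3 and 4 alone the calls of Egr4 (1.35, adjusted p = 0.101), Nr4a1 (1.09, adjusted p = 0.124), Per1 (0.26, adjusted p = 0.0918) and Arc (-0.41, adjusted p = 0.129) were lost.

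Upstream regulators were 15 higher and 3 lower of 23 in Neurod1 TRAP (median 0.45), including Camk4, a calcium-activated kinase of CREB (405 ± 74.1 CPM, n = 5, against 54.3 ± 11.6 CPM, n = 4; 2.91 ± 0.17), Camkk2 (2.23 ± 0.08) and Camkk1 (1.19 ± 0.09). Of 18 later activity-induced genes 9 were higher and 4 lower, with Vgf 2.92 ± 0.19, Plk2 1.69 ± 0.13 and Nptx2 -1.83 ± 0.18. Of 20 heat shock and dissociation genes 6 were higher and 12 lower (median -0.37), with sums of 4970 to 5577 CPM in Neurod1 TRAP and 6727 to 7296 CPM in Math1 TRAP. Nfkbia (-0.67 ± 0.09), Socs3 (-0.69 ± 0.10) and Hspa8 (-0.44 ± 0.06) were among the lower ones. Endothelial and pericyte markers, all 6 lower, summed to 12.9 to 22.6 CPM in Neurod1 TRAP and 38.4 to 75.5 CPM in Math1 TRAP, and Purkinje cell markers, all 4 higher, to 145 to 193 CPM and 7.03 to 20.8 CPM. The Neurod1 lysates came from whole cerebellum and the Math1 libraries from isolated cells, so preparation and cell population cannot be told apart.

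Neurod1 TRAP RNA was also set against total cerebellar RNA, with age as a term in the fit and 1 input at each age. Of 31 members 12 were higher in TRAP than in input and 4 lower (38.7% and 12.9%), against 36.6% and 41.2% of 15479 genes, with a median of 0.30 against -0.07. The count of higher members was close to that of other genes. It depended on scaling: with library size scaling 6 members were higher and 9 lower, and the median gene moved to -0.46.

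Klf4 and Klf2, which are known for their roles in endothelial and immune cells, were depleted. Klf4 had 0.211 CPM at the lowest, 0.429 at the median and 0.585 at the highest of 15 TRAP libraries, against 4.19, 3.54 and 3.97 CPM in P7, P12 and P21 input (-2.84 ± 0.19, adjusted p = 1.6e-10). Klf2 had 0.975, 1.65 and 4.42 CPM at the lowest, the median and the highest TRAP library, against 6.27, 5.32 and 5.08 CPM in input (-1.21 ± 0.22, adjusted p = 6.2e-05). No TRAP library of either gene reached an input value. All 6 endothelial and pericyte and all 6 microglia markers were lower in TRAP too, at 8.04 to 22.6 CPM and 3.03 to 10.8 CPM against 75.0 to 164 CPM and 44.7 to 70.8 CPM, and the part of those cells in the difference was not tested. Klf6 (-0.26 ± 0.07) and Dusp6 (-0.38 ± 0.14) were lower as well, each losing its call without 1 library.

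Jund, a Jun gene expressed in most resting cells, was enriched, with 452 to 815 CPM and a median of 549 CPM in TRAP against 319, 256 and 286 CPM in the P7, P12 and P21 inputs (1.40 ± 0.13, adjusted p = 7.2e-09). Egr4 was at 2.72, 2.00 and 2.21 times the input at P7, P12 and P21 (1.54 ± 0.25, adjusted p = 1.2e-05). Dusp5 was at 1.91, 1.60 and 1.55 times the input (1.14 ± 0.10, adjusted p = 3.7e-09), and Ier2 at 1.31, 1.73 and 2.52 times (1.20 ± 0.23, adjusted p = 1.0e-04). Dusp1 (0.89 ± 0.24, adjusted p = 0.00251) and Fos (0.80 ± 0.34, adjusted p = 0.0397) were higher, Fos with 6.56, 15.5 and 276 CPM at the lowest, the median and the highest TRAP library against 8.53, 13.6 and 103 CPM in input. The Fos call was lost in 4 of 18 fits that left out 1 library. Jun, Maff, Nr4a2, Homer1, Ier5 and Dusp4 were also called higher, and Homer1 turned to -0.09 under library size scaling. That scaling also ended the calls of Fos (0.40, adjusted p = 0.266), Maff (0.31, adjusted p = 0.141), Nr4a2 (0.21, adjusted p = 0.217), Ier5 (0.19, adjusted p = 0.1) and Dusp1 (0.49, adjusted p = 0.0562). Under it Npas4 (-1.25, adjusted p = 0.012), Arc (-0.76, adjusted p = 4.7e-04), Atf3 (-0.75, adjusted p = 0.0229), Csrnp1 (-0.48, adjusted p = 0.0166) and Ier3 (-0.46, adjusted p = 0.0415) were called lower. Of the other anchors, Egr1 (-0.02 ± 0.30), Nr4a1 (0.47 ± 0.28), Junb (0.47 ± 0.34), Npas4 (-0.83 ± 0.44) and Arc (-0.36 ± 0.17) were not called. Npas4 stood at 0.246, 0.371 and 0.621 times the input at P7, P12 and P21, and without P21 libraries 2 and 3 it was called lower (-1.21, adjusted p = 0.00156).

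The inputs showed the rise with age as well, with 1 library each and therefore no test. Fos was at 8.53, 13.6 and 103 CPM in P7, P12 and P21 input, Nr4a1 at 7.92, 18.3 and 102 CPM, Npas4 at 0.968, 2.44 and 14 CPM and Arc at 4.09, 4.84 and 7.46 CPM. Upstream regulators were 12 higher and 6 lower of 23 in TRAP (Map2k2 0.94 ± 0.08, Camkk1 0.80 ± 0.07 and Elk3 -2.46 ± 0.16), later activity-induced genes 7 and 7 of 19 (Nrn1 1.16 ± 0.12 and Rgs4 -1.96 ± 0.16), and heat shock and dissociation genes 8 and 7 of 20 (Mt2 -2.56 ± 0.17 and Hspb1 -2.51 ± 0.17).

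With UNC1999 most members were not called, but in the main fit the called shares were above those of all genes. After 5 days with UNC1999, 6 of 32 members were higher and 3 lower than with DMSO (18.8% and 9.38%), against 6.36% and 5.53% of 15978 genes, with a median of -0.03 against 0.00. Without adjustment for multiple tests, 10 were higher and 9 lower at a p under 0.05, and DESeq2 called 4 higher and 2 lower. The share of all genes at the unadjusted threshold was not counted. Each group had 2 libraries, and the fits that left out 1 of them gave 3 to 4 higher and 2 to 3 lower. Shares of all genes are not given here for DESeq2 or for those fits, so the comparison of shares holds for the main fit only.

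Egr4 changed most, with 2.69 and 2.62 CPM with UNC1999 against 1.03 and 0.42 CPM with DMSO (1.93 ± 0.34, adjusted p = 0.00237). Ier3 fell, with 29.9 and 28.3 CPM against 51 and 45.3 CPM (-0.73 ± 0.08, adjusted p = 1.0e-04). Jun had 96.5 and 108 CPM against 81.6 and 78.8 CPM (0.35 ± 0.06, adjusted p = 0.00192). The groups did not overlap for these genes, and their calls and that of Dusp4 (14.6 and 14.3 CPM against 18.4 and 21.2 CPM; -0.46 ± 0.09, adjusted p = 0.00357) held without each library in turn. Dusp5 had 120 and 110 CPM against 95 and 87.5 CPM (0.33 ± 0.07, adjusted p = 0.00823), Nr4a2 32.3 and 29 CPM against 20.7 and 23.4 CPM (0.47 ± 0.11, adjusted p = 0.0121), and Klf2 8.68 and 10.1 CPM against 7.48 and 5.7 CPM (0.53 ± 0.16, adjusted p = 0.041). Per1 (0.24 ± 0.06, adjusted p = 0.027) was higher and Fosl2 (-0.26 ± 0.08, adjusted p = 0.0427) lower. These 5 calls were each lost in 2 to 4 of the 4 fits that left out a library.

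The classic activity genes were not called with UNC1999. Fos had 64.2 and 59.2 CPM against 57.9 and 72.7 CPM with DMSO (-0.09 ± 0.11, adjusted p = 0.667), and Npas4 had 8.38 and 7.03 CPM against 6.15 and 9.99 CPM (-0.11 ± 0.19, adjusted p = 0.778). Arc had 1.1 and 1.16 CPM against 1.63 and 1.96 CPM (-0.68 ± 0.25, adjusted p = 0.0951), and Egr1 25.5 and 32.6 CPM against 24.2 and 22.4 CPM (0.33 ± 0.10, adjusted p = 0.0606). Nr4a1 (0.30 ± 0.11, adjusted p = 0.103) and Junb (-0.13 ± 0.12, adjusted p = 0.542) were not called either. Upstream regulators were 4 higher and 3 lower of 23, with Camkk2 0.51 ± 0.07, Camk4 0.43 ± 0.06 and Elk1 0.35 ± 0.06. Later activity-induced genes were 1 higher and 3 lower of 20, with Inhba, an activin subunit, at -0.81 ± 0.13, and 2 of 20 heat shock and dissociation genes, Hspa1a and Hspb1, were lower. Granule neuron markers, 3 of 4 higher, summed to 2214 to 2236 CPM with UNC1999 and 1609 to 1659 CPM with DMSO, and astrocyte and Bergmann glia markers, 3 of 6 lower, to 1634 to 1797 CPM and 1921 to 1982 CPM. Their part was not tested.

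In the Ezh1 cultures the targeted gene itself was at 34.8, 36.5, 35.6 and 33.7 CPM in cKO cells against 40.7, 42.1, 49.9, 47.5 and 41 CPM in wt cells, without overlap. The deleted exons are not given in the sources used here, so this level does not check the deletion. No member was called in either direction (0 of 32), and edgeR called 0% of 14461 genes higher and 0% lower. DESeq2 called no member and 1 gene. At an unadjusted p under 0.05, 3 members were lower, namely Klf2, Ier2 and Ier5, and none was higher. The share of all genes at that threshold was not counted, so these members are not set apart from other genes. Klf2 had 7.15, 6.18, 7.01 and 6.07 CPM in cKO cells against 9.74, 9.07, 9.48, 9.77 and 11 CPM in wt cells (-0.58 ± 0.12, unadjusted p = 0.00113, adjusted p = 1). Ier2 had 43.5, 42.4, 43 and 44 CPM against 61.9, 47.1, 49, 54.5 and 47.9 CPM (-0.28 ± 0.11), and Ier5 had 74.3, 63.8, 70 and 69.2 CPM against 81, 75.9, 74.3, 83.7 and 97.8 CPM (-0.26 ± 0.10). The 2 genotypes did not overlap for Klf2 and Ier2, and met at 74.3 CPM for Ier5. How many of all genes did not overlap was not counted.

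With the replicate block Klf2 was at -0.55 with an adjusted p of 0.498. Within replicates 1 and 2 its log2 ratio of cKO to wt was -0.47, and within the later replicates -0.59. With DESeq2 its adjusted p was 0.134, and with a term for the sets, added after seeing the data, it was 0.58. Fos had 206, 253, 54.2 and 55.2 CPM in cKO cells against 196, 194, 51.7, 91.3 and 57.9 CPM in wt cells (0.25 ± 0.62), and libraries 1 and 2 were the highest of each genotype. Egr1 (0.20 ± 0.46), Fosb (0.17 ± 1.15), Junb (0.00 ± 0.39), Nr4a1 (-0.09 ± 0.23), Npas4 (-0.22 ± 0.26) and Arc (-0.04 ± 0.18) were not called. No gene of the upstream (22 tested), later activity-induced (20) or dissociation (20) lists and no marker was called.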

How the data were processed

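Poly(A) RNA of 39 libraries was sequenced on a NextSeq 500, per the labels' protocols. The authors deposited a table of estimated counts per Entrez gene as whole numbers, made with Salmon 0.8.2 on mm10 per the submitters' processing notes. Of 24100 gene IDs 24045 matched a mouse symbol, all 32 members among them. CPM were computed over each library's total. The main test was edgeR 4.0.16 (quasi-likelihood, TMM, filterByExpr with a minimum count of 10 and a minimum total of 15, two-sided) in R 4.3.3 with limma 3.58.1, with Benjamini-Hochberg adjustment over all genes tested. The 19 TRAP libraries, the 15 Neurod1 TRAP and 3 input libraries, the 8 culture libraries and the 9 Ezh1 libraries were each fitted alone, and the steps were tested on simulated data. Alternatives were DESeq2 1.42.0, library size scaling, no filter, only the 2 groups compared, the replicate block and leaving out libraries. In the Ezh1 cultures same-numbered libraries deviated together in 4 of 4 pairs (correlations 0.84 to 0.91), but only 2 cKO libraries were most like their own number. Libraries 1 and 2 of both genotypes also form a set, so these correlations do not show pairing by number. Values of each library are given for 6 anchors and, per comparison, for up to 8 called members with the largest log2 change and a mean of at least 1 CPM; of each pathway list up to 3 called genes of at least 5 CPM are named by adjusted p. The members and lists were chosen with earlier results of these data known.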

Additional observations from a re-analysis of the deposited data

Results flagged for a closer look

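In 169 groups of values of 4 or 5 libraries with a mean of at least 1 CPM, 8 single values lay far from the rest of their group. Chance gives about 1 in 20, so the number found is about what chance gives, and the values are only listed. Jun was at 124 CPM in P21 Neurod1 TRAP library 1 against 76.2 to 87.7 CPM in the other P21 libraries, and at 77.5 CPM in P12 library 5 against 64.8 to 68.2 CPM. Both Nr4a2 and Nr4a3 stood out in P12 library 1, at 25.4 CPM against 15.8 to 18 CPM and at 15.8 CPM against 9.21 to 10.7 CPM. Ier2 was at 49.6 CPM in P12 library 2 against 31.8 to 36.6 CPM, and Ier3 at 6.57 CPM in P21 library 2 against 5.01 to 5.45 CPM. In the Ezh1 cultures Klf6 was at 95.6 CPM in cKO library 1 against 79.8 to 81.5 CPM in the other cKO libraries, and at 81.7 CPM in wt library 3 against 97.7 to 103 CPM in the other wt libraries.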

How the results depend on the processing

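A change of sign was counted as a turn only where the main fit or the alternative called the member, and was otherwise not counted. Of 4288 values of single members under an alternative, 4112 kept their side of the threshold, 87 lost a call, 84 gained one and 5 turned. The 5 were Fos (1.91), Fosb (0.73) and Egr1 (0.32) in Neurod1 against Math1 TRAP with Math1 libraries 1 and 2 alone, Homer1 in TRAP against input (-0.09) and Jund in DIV5 against DIV2 (0.00), both under library size scaling. Counts of called members moved by over 1.5 times in few settings. With Math1 libraries 1 and 2 alone 6 members were lower in Neurod1 TRAP than in Math1 TRAP, against 10. In TRAP against input, library size scaling gave 6 higher and 9 lower and no filter gave 2 lower, against 12 higher and 4 lower. For UNC1999, no filter and the replicate block each gave 6 lower, against 3. Leaving out each library in turn gave, higher and lower, 8 to 9 and 7 to 9 for P12 against P7, 20 to 22 and 5 for P21 against P12, 19 to 21 and 6 to 7 for P21 against P7, 11 to 13 and 8 to 11 for Neurod1 against Math1, 11 to 14 and 3 to 5 for TRAP against input, 1 and 29 to 30 for DIV2 against DIV0, 18 to 19 and 4 to 6 for DIV5 against DIV2, 2 and 29 to 30 for DIV5 against DIV0, 3 to 4 and 2 to 3 for UNC1999, and 0 and 0 for Ezh1. Outside the Ezh1 cultures the correlations of same-numbered libraries ran between -0.33 and 0.23. With the replicate block there, 12 and 10 were called for P12 against P7, 22 and 4 for P21 against P12, 11 and 7 for Neurod1 against Math1 and 6 and 6 for UNC1999. Crossed numbers, tried after seeing the data, gave 20 higher and 4 lower for DIV5 against DIV2. Library size scaling moved the share of calls that are higher over all genes to 35.7% (against 49.8%) for P21 against P12, to 25.6% (against 47.1%) for TRAP against input and to 57.4% (against 46.6%) for DIV5 against DIV2; the members then split 20 and 6, 6 and 9, and 20 and 4. The cause of these shifts was not tested. Groups of 2 libraries, 1 input per age and levels near 3 counts limit the precision.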
